A study of Mus musculus with 35 samples.

Results

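G-NHA9–ΔDNA (G-NHX9-DDNA in the sample labels) was compared with the full-length fusion it was made from, G-NHA9 (G-NHX9 in the labels), over all genes counted by RNA-seq. The comparison took 10 of the 35 libraries of the series, 5 for each construct, chosen by the genotype on each label. The 5 libraries of empty vector cells (Empty) are given beside them as background. Both constructs carry an mEGFP tag and the same phenylalanine-glycine (FG) motifs of NUP98, and the mutant (ΔDNA) differs in its HOXA9 homeodomain, which was altered to weaken DNA binding. All cells were lin- HSPCs, that is, bone marrow cells from male and female C57Bl/6 mice from which cells with markers of mature blood lineages had been removed. They received their construct by lentiviral vector in a liquid culture with cytokines and were sorted on fluorescence. They then grew for 1 week in MethoCult, a methylcellulose medium that held myeloid and erythroid growth factors, with 10 ng/mL GM-CSF added. The mice were 8 weeks old for every library of either construct except G-NHA9 library 1 (11 weeks), and 8 to 10 weeks old for the empty vector. The labels give neither the number of animals nor separate cultures behind a library, so p-values measure the spread between these libraries, which may be technical in part. RNA was taken from whole cultures, in which fewer cells of a type and less RNA per cell cannot be told apart.

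NUP98–HOXA9 joins the FG-rich part of a nuclear pore protein to the homeodomain of HOXA9 and is found in acute myeloid leukemia. The homeodomain is the part of HOX proteins that binds DNA, at short AT-rich sites, often next to a PBX or MEIS protein of the TALE homeobox family. HOX proteins set position along the body axis in the embryo, and in bone marrow the *Hoxa* and *Hoxb* genes are expressed in stem and early progenitor cells and decline as cells mature. The comparison addresses which transcripts depend on an intact homeodomain when the FG part is kept.

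Total counts were 34641407 to 45464263 in the G-NHA9 libraries and 41240027 to 47703538 in the G-NHA9–ΔDNA libraries, at which a count of 0 allows up to 0.0615 to 0.087 CPM (3 counts, counting error only). Of the 17166 genes tested, 3798 differed (22.1%), with 1837 higher in G-NHA9–ΔDNA cells (10.7%) and 1961 lower (11.4%), at an adjusted p under 0.05 (edgeR, quasi-likelihood, p-values adjusted over all genes by Benjamini-Hochberg). All adjusted p-values below come from this test, log2 fold changes are G-NHA9–ΔDNA over G-NHA9, and levels are CPM, a gene's counts relative to the scaled total of its library, as mean ± SD of 5 libraries. A value without a unit after CPM levels is a log2 fold change. The difference was at least 2-fold in 876 of the higher and 751 of the lower genes, and at least 4-fold in 231 and 262. The median log2 fold change of all genes tested was -0.003, and it was -0.05 without TMM scaling, where 59.5% of the changed genes were lower in place of 51.6%. The libraries of the constructs did not overlap for 2445 genes (14.2%). As a check of the labelled cells, genes of progenitors (*Kit* and *Cd34*, below) were read in every library, and after the culture genes of macrophages and late neutrophils summed to 12970 to 30890 and 14510 to 29830 CPM with G-NHA9, so markers of maturing cells stood beside those of progenitors. Both sums include *Lyz2*, at a mean of 8640 CPM with G-NHA9, so they are not separate measures. On the first principal component, which held 76.5% of the variance of the 500 most variable genes, G-NHA9 libraries lay between 27.4 and 35.4 and G-NHA9–ΔDNA libraries between -36.2 and -27.6.

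**Figure D1:**
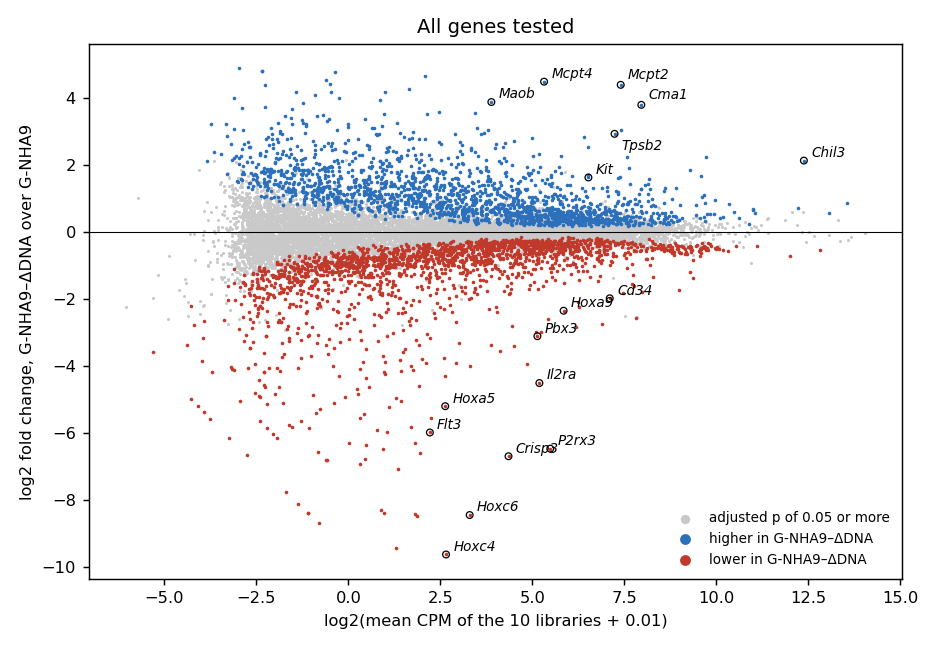
Log2 fold change (vertical axis, G-NHA9–ΔDNA over G-NHA9) against log2 of the mean CPM of the 10 libraries (horizontal axis), with 1 point for each of the 17166 genes tested. The 1837 genes higher in G-NHA9–ΔDNA cells are blue, the 1961 lower genes are red, grey genes did not pass the test, and circled genes are named in the text. *Hoxc4* has the most negative value, which rests on 3 counts in G-NHA9–ΔDNA cells, and *Mcpt4* stands among the highest.

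*Hoxa9* and *Nup98*, the genes whose parts make the fusion, were read first. *Hoxa9* (chromosome 6, 52223100 to 52231089, minus strand, mm10) had 108, 113, 96.6, 85.8 and 79.3 CPM in G-NHA9 libraries 1 to 5 and 17.3, 20.3, 17.2, 16.9 and 23.0 CPM in G-NHA9–ΔDNA libraries 1 to 5. The groups did not overlap, and the level fell 5.1-fold, from 96.6 ± 14.4 to 18.9 ± 2.67 CPM (SD, n = 5; log2 fold change, -2.35, SE 0.32, adjusted p = 1.3e-06). Empty vector cells had a mean of 0.975 CPM, so *Hoxa9* reads were above background with either construct. *Nup98* had 171 ± 27.0 and 207 ± 23.3 CPM with overlapping libraries (log2 fold change, 0.27, SE 0.12, adjusted p = 0.1), against 129.5 CPM with the empty vector. With the replicate number as a block its adjusted p was 0.0071, without G-NHA9 library 5 it was 0.034, and with a score of sex-linked transcripts it was 0.011. Reads of the construct and of the endogenous gene cannot be told apart in these counts, and neither gene therefore shows how much fusion protein the cells made.

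Genes of the *Hox* clusters fell to a small part of their G-NHA9 level. Of 39 *Hox* genes in the counts, 21 passed the filter on low counts, and these 21 fell in G-NHA9–ΔDNA cells (background, 11.4% of genes tested lower), with a median log2 fold change of -5.20, or -4.71 with the 10 genes nearest 0 in G-NHA9–ΔDNA cells set to the lower limit of their ratio (below). Several passed the filter only through conditions in which they were high, so the count describes these genes and is no share of the clusters. In 20 of the 21, the highest G-NHA9–ΔDNA library was below the lowest G-NHA9 library (background, 14.2%). The summed level of the 21 genes was 201 to 232 CPM in G-NHA9 cells, 24.3 to 33.7 CPM in G-NHA9–ΔDNA cells and 6.77 to 9.49 CPM with the empty vector. *Hoxa9*, whose counts may hold reads of the construct, made up most of the G-NHA9–ΔDNA sum. Without it the sums were 104 to 138 CPM, 7.37 to 10.7 CPM and 5.69 to 8.48 CPM in the same order, so G-NHA9–ΔDNA and empty vector libraries overlapped. A mean of at least 1 CPM was reached by 18 of them with G-NHA9 and by 5 with G-NHA9–ΔDNA. The other 18, among them every *Hoxd* gene, had at most 7 counts in any library of either construct.

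To show the sequence near the starts of *Hox* genes whose values follow, 4 promoters from the 3 expressed clusters are given from RefSeq (GRCm38.p6, 250 bases before to 50 after the start). Capitals mark TTTAT or its reverse complement ATAAA, the core that HOX9 and other posterior HOX proteins prefer. Of the 21 tested *Hox* genes, 10 were matched to 11 promoters. The *Hoxc4* and *Hoxa7* sequences lie at RefSeq starts inside the GENCODE spans of their genes (for *Hoxa7*, chromosome 6, 52214491 to 52221854), and so away from the outermost start annotated there.
Hoxa5, chr6:52204538-52204837, minus strand: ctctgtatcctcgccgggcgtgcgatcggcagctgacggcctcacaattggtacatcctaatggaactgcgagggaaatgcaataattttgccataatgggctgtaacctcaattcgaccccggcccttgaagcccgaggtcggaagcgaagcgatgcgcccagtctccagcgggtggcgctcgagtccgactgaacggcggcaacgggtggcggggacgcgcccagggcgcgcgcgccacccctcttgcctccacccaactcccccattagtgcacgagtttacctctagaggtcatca
Hoxa7, chr6:52218524-52218823, minus strand: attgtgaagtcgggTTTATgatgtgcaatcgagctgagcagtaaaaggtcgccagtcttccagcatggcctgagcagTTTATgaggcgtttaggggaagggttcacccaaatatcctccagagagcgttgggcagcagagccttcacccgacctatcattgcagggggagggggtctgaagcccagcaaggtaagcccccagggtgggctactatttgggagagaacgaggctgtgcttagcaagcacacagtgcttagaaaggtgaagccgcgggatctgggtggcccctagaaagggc
Hoxb8, chr11:96281655-96281954, plus strand: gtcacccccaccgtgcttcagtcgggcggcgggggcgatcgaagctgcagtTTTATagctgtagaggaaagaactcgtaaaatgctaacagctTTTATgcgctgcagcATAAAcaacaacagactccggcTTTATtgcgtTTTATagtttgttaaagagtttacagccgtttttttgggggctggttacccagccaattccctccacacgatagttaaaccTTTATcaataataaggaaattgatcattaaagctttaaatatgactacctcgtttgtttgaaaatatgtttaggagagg
Hoxc4, chr15:103034145-103034444, plus strand: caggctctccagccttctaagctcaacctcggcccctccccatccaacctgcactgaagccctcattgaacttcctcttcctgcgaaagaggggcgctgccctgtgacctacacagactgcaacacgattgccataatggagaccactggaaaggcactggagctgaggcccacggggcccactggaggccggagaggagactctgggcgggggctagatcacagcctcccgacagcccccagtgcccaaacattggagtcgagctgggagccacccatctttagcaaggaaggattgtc

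The core was found 6 times in the *Hoxb8* promoter and 2 times in that of *Hoxa7*, and not in those of *Hoxa5* and *Hoxc4*. It was present in 5 of the 11 *Hox* promoters (45.5%) and in 40.01% of 32851 promoters of the same length. The MEIS core TGACAG was in 2 of the 11 (18.2%, *Hoxa2* and *Hoxa3*) and in 19.18% of all promoters. The joint PBX and HOX9 sequence TGATTTAT was in none of the 11 and in 0.98% of all promoters. All searches covered both strands, and TGATTTAT contains TTTAT. These shares describe the letters in these windows only.

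On chromosome 15, *Hoxc4* (103018934 to 103036852) had 11.8, 12.5, 12.3, 13.5 and 12.8 CPM in the G-NHA9 libraries, whereas 4 of the G-NHA9–ΔDNA libraries had no count and library 1 had 3. Summed counts were 2478 and 3, a ratio of 952 after scaling for depth (95% exact interval, 325 to 4620, counting error only), and the adjusted p was 3.2e-16. *Hoxc6* had 15.5, 17.3, 14.6, 25.4 and 25.4 CPM with G-NHA9 and 0, 0.0468, 0, 0.19 and 0.0448 CPM with G-NHA9–ΔDNA, a ratio of 372 (213 to 721; adjusted p = 5.9e-14) on 12 counts left. Its fitted log2 fold change was -8.45, and -9.63 without G-NHA9–ΔDNA library 4, which held most of these counts. *Hoxc5* and *Hoxc8*, with means of 7.21 and 3.91 CPM with G-NHA9, fell by ratios of 410 (160 to 1510) and 441 (122 to 3650), with 4 counts left in G-NHA9–ΔDNA cells for *Hoxc5*, 3 of them in library 1, and 2 for *Hoxc8*. Every G-NHA9 library was above every G-NHA9–ΔDNA library for these 4 genes. In the GENCODE M21 annotation *Hoxc5* spans *Hoxc6* and *Hoxc8* on the same strand, so counts of these genes can be shared.

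In the *Hoxa* cluster, *Hoxa7* had 21.9, 19.2, 19.4, 17.4 and 16.0 CPM with G-NHA9 and 0.992, 1.55, 0.574, 0.975 and 1.73 CPM with G-NHA9–ΔDNA (log2 fold change, -4.01, SE 0.38, adjusted p = 1.1e-09), and empty vector cells had 0.365 to 1.24 CPM. *Hoxa5* had 16.2, 10.8, 8.76, 9.74 and 14.9 CPM and 0.351, 0.375, 0.266, 0.119 and 0.515 CPM (log2 fold change, -5.20, SE 0.30, adjusted p = 1.6e-14). No libraries overlapped for either gene, and 3 of the 5 G-NHA9–ΔDNA libraries lay within the empty vector range for *Hoxa7* against 1 for *Hoxa5*. *Hoxa3* fell from 9.25 to 0.197 CPM (log2 fold change, -5.55). *Hoxa6* and *Hoxa2*, at 2.59 and 1.47 CPM with G-NHA9, had 13 and 9 counts left and fell by ratios of 45.3 (26.3 to 85.7) and 36.1 (18.8 to 79.8), and the fitted log2 fold change of *Hoxa2* moved from -5.10 to -5.88 without G-NHA9–ΔDNA library 5. *Hoxa10*, which lies beside *Hoxa9*, had 4.03, 4.63, 3.68, 5.49 and 3.36 CPM with G-NHA9, 1.41, 0.773, 1.07, 0.904 and 1.23 CPM with G-NHA9–ΔDNA and 0 to 0.184 CPM with the empty vector (log2 fold change, -1.97, SE 0.37, adjusted p = 0.00017). It and *Hoxa9* were the *Hoxa* genes for which every G-NHA9–ΔDNA library remained above every empty vector library. *Hoxa4* fell less (log2 fold change, -1.73). *Hoxa3* overlaps *Hoxa4*, *Hoxa5* and *Hoxa6* on the same strand, so their counts can be mixed.

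In the *Hoxb* cluster on chromosome 11, *Hoxb8*, which holds immature myeloid cells in a self-renewing state when forced on, had 3.17, 2.96, 2.46, 3.19 and 6.42 CPM with G-NHA9. Of the G-NHA9–ΔDNA libraries, 4 had no *Hoxb8* count and library 1 had 2, a ratio of 412 (114 to 3410; adjusted p = 1.0e-12). *Hoxb7* and *Hoxb5* fell by ratios of 142 (55.1 to 523) and 124 (52.7 to 383), with 4 counts left for *Hoxb7* and 5 for *Hoxb5*, 3 of the latter in library 1. *Hoxb6*, at 5.07 ± 0.986 CPM with G-NHA9, fell by a ratio of 146 (73.6 to 338) with 8 counts left, and its fitted log2 fold change moved from -7.06 to -8.01 without G-NHA9–ΔDNA library 1. *Hoxb3* fell from 6.34 ± 0.415 to 0.361 ± 0.0854 CPM (-4.12). *Hoxb4*, which favours stem cell self-renewal, had 8.39, 7.17, 6.29, 8.33 and 6.97 CPM with G-NHA9, 2.83, 3.37, 3.13, 1.97 and 3.85 CPM with G-NHA9–ΔDNA and 2.81 to 4.48 CPM with the empty vector. Its fall was 2.45-fold (log2 fold change, -1.29, SE 0.18, adjusted p = 1.6e-06), without overlap, and 4 of the 5 G-NHA9–ΔDNA libraries lay in the empty vector range. *Hoxb2* and *Hoxb9* were below 1 CPM with either construct and fell by 1.78 and 1.85 on the log2 scale. The number of *Hox* genes lower stayed at 21 in each fit that left out 1 library.

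**Figure D2:**
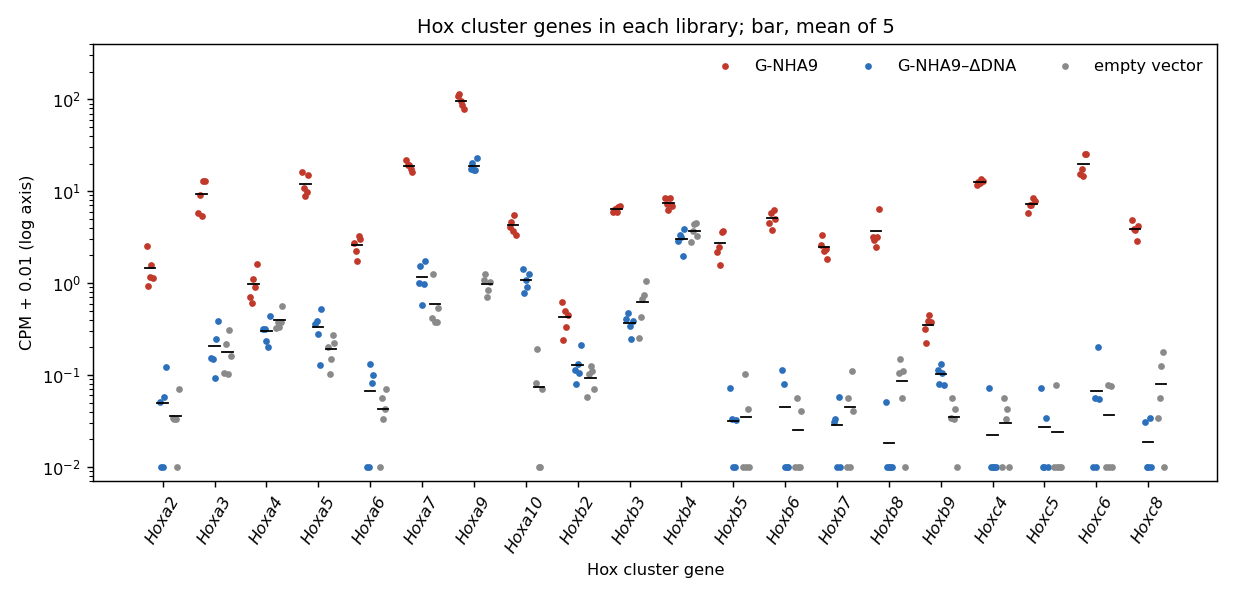
Level of 20 of the tested *Hox* genes (CPM + 0.01 on a log axis) in the 5 G-NHA9 (red), 5 G-NHA9–ΔDNA (blue) and 5 empty vector libraries (grey), with bars at the means. Points at the bottom are libraries with no count, levels are to be compared within a gene since CPM is not scaled for length, and red points lie above all blue points for each of these genes.

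The TALE cofactors that bind DNA with HOX proteins moved in both directions. Of 11 listed genes 10 were tested, of which 4 fell, 2 rose and 4 did not pass the test (median log2 fold change, -0.09, background 11.4% lower and 10.7% higher). *Pbx3*, a partner of HOXA9 in leukemia, had 65.9, 60.7, 52.4, 63.4 and 73.9 CPM with G-NHA9 and 7.07, 5.67, 8.4, 8.92 and 6.54 CPM with G-NHA9–ΔDNA, against 5.35 to 7.4 CPM with the empty vector. It fell 8.64-fold without overlap (log2 fold change, -3.11, SE 0.15, adjusted p = 7.5e-17). *Meis1*, a HOXA9 partner that speeds leukemia in mice, had 36.3, 38.8, 35.9, 38.1 and 32.4 CPM and 18.3, 21.2, 25.2, 30.0 and 26.7 CPM, a fall of 0.58 on the log2 scale (SE 0.17, adjusted p = 0.014). The groups did not overlap, and every G-NHA9–ΔDNA library was above every empty vector library (9.31 to 15.9 CPM). Without G-NHA9–ΔDNA library 1, the *Meis1* log2 fold change was -0.49 and the adjusted p 0.053. *Tgif2* and *Pbx4*, both at means below 4 CPM, fell by 1.14 and 0.99 on the log2 scale, and *Meis3* rose by 0.75. *Pbx2*, *Pknox1*, *Pknox2* and *Tgif1* had log2 fold changes of 0.02, 0.02, 0.27 and -0.21 with adjusted p-values of 0.93, 0.92, 0.69 and 0.18. The signs of *Pbx2* and *Pknox1* turned without TMM scaling.

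Of 27 tested transcription factors and regulators of stem cells and leukemia, 14 fell, 1 rose and 12 did not pass the test (median log2 fold change, -0.60, background 11.4% lower and 10.7% higher). *Eya1*, a transcriptional cofactor, had 45.0, 27.7, 28.0, 32.0 and 28.1 CPM with G-NHA9 and 2.5, 1.45, 2.56, 3.16 and 4.08 CPM with G-NHA9–ΔDNA (log2 fold change, -3.55, SE 0.25, adjusted p = 1.3e-12). The groups were far apart, with G-NHA9 library 1 the highest. *Msi2*, an RNA-binding protein that sustains leukemic stem cells, had 78.2, 79.5, 80.6, 75.5 and 78.1 CPM and 33.6, 35.9, 37.2, 36.4 and 38.9 CPM, a 2.15-fold fall (log2 fold change, -1.11, SE 0.12, adjusted p = 3.6e-08). All 5 G-NHA9–ΔDNA libraries lay in the empty vector range of 23.9 to 38.9 CPM. *Mecom*, which encodes the stem cell factor EVI1, fell from 7.31 ± 1.59 to 1.98 ± 0.485 CPM (-1.88), and *Hmga2*, a chromatin protein of fetal stem cells, from 2.7 ± 1.05 to 0.967 ± 0.426 CPM (-1.48). *Myb*, needed by myeloid progenitors, had 124, 127, 105, 128 and 121 CPM with G-NHA9, 82.8, 82.7, 71.6, 64.0 and 70.7 CPM with G-NHA9–ΔDNA and 22.8 to 41.0 CPM with the empty vector, so the G-NHA9–ΔDNA libraries lay between the other groups (log2 fold change, -0.70, SE 0.17, adjusted p = 0.0026). The gene of the list that rose was *Tal1*, a basic helix-loop-helix factor also used by red cell and megakaryocyte precursors (means, 72.7 and 108 CPM, log2 fold change, 0.57).

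Surface markers of stem and progenitor cells split evenly, with 7 of 19 lower and 7 higher (median log2 fold change, 0.05, background 11.4% lower and 10.7% higher). *Flt3*, the FLT3 ligand receptor of multipotent and dendritic progenitors, had 10.2, 9.2, 10.3, 8.75 and 7.18 CPM with G-NHA9 and 0.0827, 0.117, 0.143, 0.166 and 0.202 CPM with G-NHA9–ΔDNA. It fell 64.3-fold (log2 fold change, -5.98, SE 0.33, adjusted p = 3.1e-15), and 4 of the 5 G-NHA9–ΔDNA libraries lay in the empty vector range of 0.0918 to 0.332 CPM. *Cd27*, a co-receptor on progenitors, had 2.43 ± 0.367 CPM with G-NHA9 and 11 counts in all with G-NHA9–ΔDNA, a ratio of 49.5 (95% exact interval, 27.4 to 99.7; adjusted p = 1.6e-11). *Cd34*, a sialomucin of stem and progenitor cells, had 201, 222, 228, 215 and 235 CPM and 44.1, 65.0, 55.5, 66.3 and 48.0 CPM, a 3.94-fold fall without overlap (log2 fold change, -1.98, SE 0.19, adjusted p = 8.3e-10). *Ly6a*, which encodes the stem cell antigen Sca-1, fell 3.54-fold from 275 ± 35.3 to 77.6 ± 13.8 CPM, below the empty vector mean of 116 CPM. *Thy1* fell 6.76-fold from 209 ± 64.2 to 31.0 ± 15.9 CPM. *Kit*, the stem cell factor receptor carried by stem cells and kept by mast cells, rose. It had 37.4, 30.3, 31.8, 62.5 and 63.8 CPM with G-NHA9 and 112, 128, 137, 200.0 and 119.7 CPM with G-NHA9–ΔDNA, with no overlap and with library 4 the highest (log2 fold change, 1.63, SE 0.26, adjusted p = 1.5e-05).

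**Figure D3:**
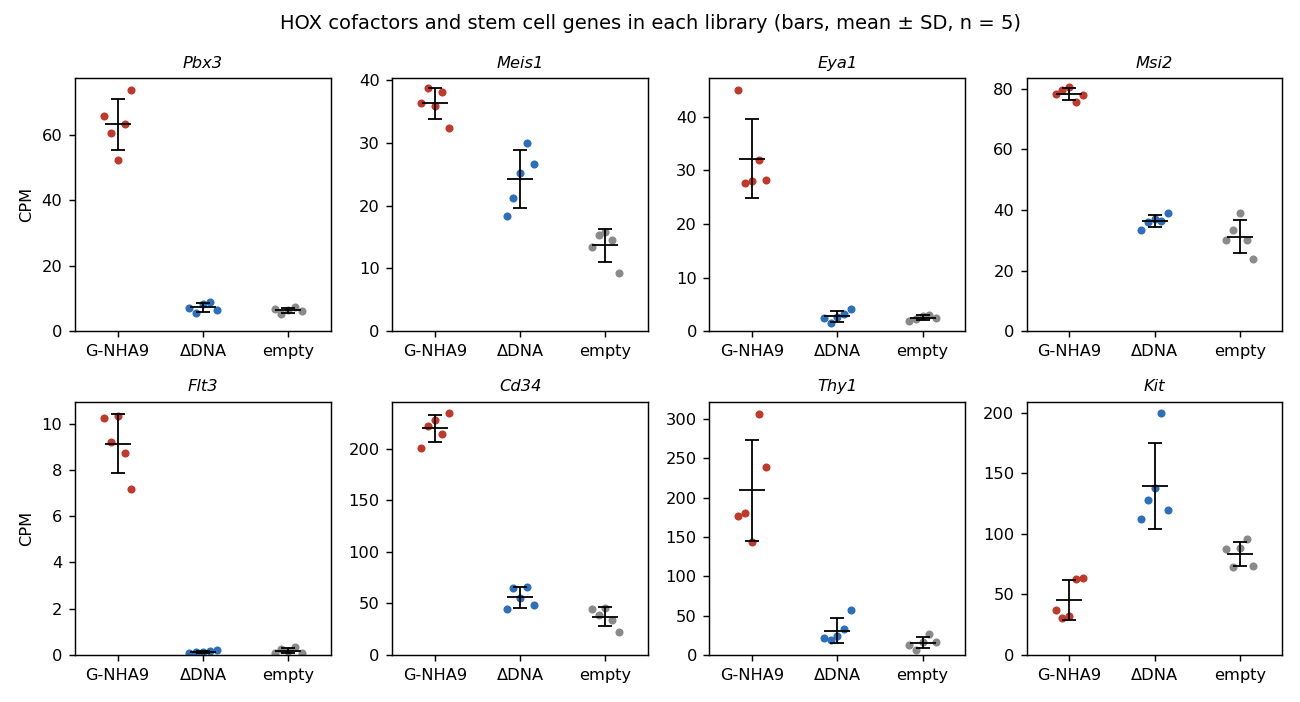
CPM of *Pbx3*, *Meis1*, *Eya1*, *Msi2*, *Flt3*, *Cd34*, *Thy1* and *Kit* in each G-NHA9 (red), G-NHA9–ΔDNA (blue) and empty vector library (grey), with mean ± SD of 5 libraries. *Pbx3*, *Eya1*, *Msi2*, *Flt3* and *Thy1* in G-NHA9–ΔDNA cells lie among or near the empty vector libraries, *Meis1* and *Cd34* lie mostly between the other groups, and *Kit* is above G-NHA9.

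The 27 genes that the study marked in its heat map were chosen by the study on these samples, so their directions are no independent evidence. Of these, 15 fell, 8 rose and 4 did not pass the test (median log2 fold change, -0.38, background 11.4% lower and 10.7% higher). *Pak3*, a p21-activated kinase, had 7.34, 6.3, 7.07, 7.86 and 6.55 CPM with G-NHA9 and 4 counts in all with G-NHA9–ΔDNA, 3 of them in library 1, a ratio of 396 (154 to 1460; adjusted p = 5.9e-14). *Pfn2*, the actin-binding profilin 2, had 11.1, 11.5, 12.4, 10.7 and 10.6 CPM and 0.785, 0.96, 1.02, 0.547 and 0.784 CPM (log2 fold change, -3.77, SE 0.15, adjusted p = 1.8e-18). *Slc25a15*, a mitochondrial ornithine carrier, fell 2.31-fold from 40.9 ± 1.77 to 17.7 ± 1.3 CPM without overlap. Among those that rose were *Pde1c*, a cyclic nucleotide phosphodiesterase (2.99 ± 0.453 to 17.1 ± 1.32 CPM, 2.51), *Pdgfc*, a growth factor (1.71 ± 0.524 to 7.69 ± 2.0 CPM, 2.17), and *Adcy3*, an adenylate cyclase (7.16 ± 0.91 to 21.5 ± 3.33 CPM, 1.59). The calcium channel gene *Itpr2* and the matrix protein gene *Tgfbi* rose 2.12-fold and 2.33-fold. *Slc16a1*, *Shmt1*, *Dtd1* and *Pus7* had log2 fold changes of -0.12, -0.34, -0.29 and -0.30, with adjusted p-values from 0.096 to 0.58. For these 4 genes all empty vector means (43.2, 8.72, 4.36 and 13.8 CPM) were below the means of both constructs (81.0, 27.8, 8.4 and 26.3 CPM with G-NHA9, 74.4, 22.0, 6.87 and 21.4 CPM with G-NHA9–ΔDNA).

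Among all genes that averaged 5 CPM or more and showed no overlap between the constructs, the falls below *Hoxc4* and *Hoxc6* were led by *Crisp3*, a secreted granule protein, and *P2rx3*, an ATP-gated ion channel. *Crisp3* had 46.4, 46.4, 46.4, 31.5 and 31.9 CPM with G-NHA9 and 0.331, 0.187, 0.102, 0.0951 and 1.23 CPM with G-NHA9–ΔDNA (log2 fold change, -6.69, SE 0.59, adjusted p = 2.4e-10, and -7.78 without G-NHA9–ΔDNA library 5, the highest of its group). *P2rx3* had 127, 109, 138, 47.9 and 22.4 CPM and 0.537, 1.1, 0.205, 0.309 and 2.89 CPM (log2 fold change, -6.47, SE 0.80, adjusted p = 1.9e-07, and -7.37 without the same library). For *P2rx3* every G-NHA9–ΔDNA library was also below every empty vector library (3.73 to 16.9 CPM). *Il2ra*, the alpha chain of the interleukin-2 receptor, had 51.3, 42.3, 35.4, 108 and 113 CPM and 1.55, 0.936, 0.983, 3.97 and 8.0 CPM (log2 fold change, -4.51, SE 0.51, adjusted p = 3.8e-08, and -5.24 without the same library). Libraries 4 and 5 were the highest in either group, and these were also the libraries with the highest score of sex-linked transcripts in G-NHA9 and G-NHA9–ΔDNA cells. The part of that score in *Il2ra* was not tested beyond its call, which held with the score as a covariate. *Lepr*, the leptin receptor, had 57.2, 63.2, 44.0, 59.4 and 47.2 CPM and 3.1, 4.21, 3.05, 2.35 and 4.75 CPM (log2 fold change, -3.96, SE 0.32, adjusted p = 2.8e-11), with all 5 G-NHA9–ΔDNA libraries in the empty vector range. *Fbn1*, a microfibril protein, fell 14.9-fold from 14.2 ± 1.82 to 0.953 ± 0.443 CPM, and the uncharacterised *B630019K06Rik* 19.6-fold from 11.8 ± 0.865 to 0.603 ± 0.141 CPM.

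The largest rises among these genes were led by mast cell proteases. Of 25 tested mast cell and basophil genes, 19 rose, 18 of the 25 without overlap between the constructs (background, 10.7% higher and 14.2% without overlap), and the median log2 fold change was 1.53. *Mcpt4* had 3.28, 3.22, 3.36, 4.28 and 2.97 CPM with G-NHA9 and 76.0, 98.2, 85.3, 58.9 and 64.7 CPM with G-NHA9–ΔDNA, a 22.4-fold rise (log2 fold change, 4.48, SE 0.49, adjusted p = 1.7e-08). *Mcpt2* had 10.2, 17.6, 8.09, 15.9 and 25.4 CPM and 343, 344, 429.6, 292 and 209 CPM, 21-fold (log2 fold change, 4.39, SE 0.33, adjusted p = 4.7e-12). The empty vector ranges were 21.7 to 73.5 and 119.8 to 166 CPM, so every G-NHA9–ΔDNA library exceeded every empty vector library for *Mcpt2* and 3 of 5 did for *Mcpt4*. The chymase gene *Cma1* rose 13.8-fold from 33.7 ± 11.4 to 467 ± 55.4 CPM, and the tryptase genes *Tpsb2* and *Tpsab1* rose 7.6-fold and 25.4-fold to 267 ± 59.6 and 8.13 ± 3.25 CPM. For *Tpsab1* the log2 fold change was 4.65, and 5.33 without G-NHA9 library 5. *Fcer1a*, the IgE receptor chain of mast cells and basophils, had 20.5, 19.8, 25.3, 21.7 and 17.6 CPM and 116, 146, 172, 185 and 133 CPM (log2 fold change, 2.84, SE 0.27, adjusted p = 1.2e-09), with all 5 G-NHA9–ΔDNA libraries in the empty vector range. The summed level of the list was 1864 to 2394 CPM with G-NHA9, 4608 to 6334 CPM with G-NHA9–ΔDNA and 2439 to 5630 CPM with the empty vector. *Mcpt1*, *Mcpt2* and *Mcpt4*, and likewise *Tpsb2* and *Tpsab1*, are closely related copies whose reads can be shared.

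Other genes among the largest rises were *Tph1*, the rate-limiting enzyme of peripheral serotonin synthesis, with 37.2, 30.7, 32.5, 51.8 and 31.0 CPM and 251, 307, 338, 342 and 269 CPM (log2 fold change, 3.04, SE 0.31, adjusted p = 4.0e-09). *Maob*, a monoamine oxidase, rose 14.7-fold from 1.89 ± 0.454 to 27.7 ± 7.31 CPM, and *Arnt2*, a bHLH-PAS transcription factor, 11.6-fold from 1.74 ± 0.47 to 20.2 ± 8.53 CPM. No libraries of the 2 constructs overlapped for these 3 genes. *Grm6*, a glutamate receptor, rose from 0.847 ± 0.544 to 10.2 ± 3.64 CPM, *Avil*, an actin-bundling protein, from 2.36 ± 1.11 to 20.2 ± 1.71 CPM, *Cobl*, an actin nucleator, from 2.98 ± 1.65 to 24.7 ± 10.8 CPM, and *Atp8b5*, a lipid flippase, from 2.8 ± 1.07 to 21.4 ± 5.93 CPM. Their log2 fold changes were 3.59, 3.10, 3.05 and 2.93.

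Eosinophil genes rose in 11 of 12, with a median log2 fold change of 1.66, and 8 of the 12 did not overlap between the constructs (background, 10.7% higher and 14.2% without overlap). *Il5ra*, the receptor chain for the eosinophil cytokine interleukin-5, had 0.612, 0.402, 0.116, 0.223 and 0.676 CPM with G-NHA9 and 3.74, 3.46, 3.48, 2.95 and 1.46 CPM with G-NHA9–ΔDNA (log2 fold change, 2.88, SE 0.37, adjusted p = 3.3e-07). *Prg2*, the major basic protein of eosinophil granules, had 560.1, 546, 247, 129 and 347 CPM and 1426, 1550, 1245, 794 and 839 CPM (log2 fold change, 1.68, SE 0.40, adjusted p = 0.0021). Both genes were higher in every G-NHA9–ΔDNA library than in any G-NHA9 library, and G-NHA9 libraries 3 and 4 were the lowest. The ribonuclease *Ear2* rose 5.73-fold from 27.1 ± 11.9 to 155 ± 27.4 CPM, and *Ear6* 3.22-fold to 139 ± 46.0 CPM, within a family of near copies whose reads can be shared. The gene that did not pass was *Ccr3*, the eotaxin receptor, at 1.13 and 0.854 CPM (adjusted p = 0.4). The summed level was 302 to 1057 CPM, 1690 to 2759 CPM and 1427 to 1967 CPM with G-NHA9, G-NHA9–ΔDNA and the empty vector.

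Megakaryocyte and platelet genes rose in 15 of 18, with a median log2 fold change of 1.33, against 10.7% of all genes tested. Only 3 of the 18 separated the libraries without overlap, close to the 14.2% of all genes. *Rab27b*, a vesicle regulator of platelets, had 28.4, 50.1, 40.5, 18.3 and 23.2 CPM with G-NHA9 and 69.3, 109, 140.1, 113 and 81.6 CPM with G-NHA9–ΔDNA (log2 fold change, 1.67, SE 0.22, adjusted p = 6.6e-07). *Gp1ba*, part of the von Willebrand factor receptor, had 1.78, 3.98, 3.51, 4.13 and 6.35 CPM and 8.06, 6.37, 8.69, 38.2 and 34.7 CPM (log2 fold change, 2.28, SE 0.60, adjusted p = 0.0055) and did not overlap, with G-NHA9–ΔDNA libraries 4 and 5 far above the rest. *Selp* (P-selectin) rose from 4.9 ± 2.28 to 21.9 ± 12.3 CPM, *Clec1b* from 6.7 ± 4.5 to 21.2 ± 7.88 CPM and *Tubb1*, the platelet tubulin, from 3.01 ± 2.07 to 9.2 ± 4.67 CPM. For these 3 genes the groups overlapped, with G-NHA9–ΔDNA library 1 below G-NHA9 library 2. The summed level was 1345 to 2499 CPM with G-NHA9, 2207 to 3628 CPM with G-NHA9–ΔDNA and 2541 to 3293 CPM with the empty vector.

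Red cell genes rose as well, with more spread between libraries. Of 20 genes of the red cell membrane and skeleton 15 rose (median log2 fold change, 1.24, background 10.7%), and 2 of the 20 (10%) separated the libraries without overlap, no more than among all genes (14.2%). Of 15 erythroid transcription factors and receptors 9 rose and 1 fell (0.82), and of 15 globin and heme synthesis genes 7 rose (0.54). *Gata1*, the factor that directs red cell, megakaryocyte, mast cell and eosinophil genes, had 9.56, 17.3, 17.7, 11.5 and 14.3 CPM with G-NHA9 and 23.7, 36.0, 43.2, 38.3 and 31.5 CPM with G-NHA9–ΔDNA (log2 fold change, 1.29, SE 0.22, adjusted p = 3.9e-05). Every G-NHA9–ΔDNA library was also above the empty vector range of 14.1 to 23.6 CPM. *Alas2*, the first enzyme of heme synthesis in red cells, had 3.7, 6.9, 5.36, 8.48 and 12.4 CPM and 25.5, 38.7, 57.6, 14.7 and 23.1 CPM (log2 fold change, 2.11, SE 0.54, adjusted p = 0.0043). *Hbb-bs*, an adult beta-globin gene with a near-identical neighbour, had 74.9, 149, 134, 174 and 194 CPM and 331, 554, 826, 194 and 271 CPM, with overlap (log2 fold change, 1.58, SE 0.58, adjusted p = 0.046). Its call was lost without any 1 of G-NHA9 libraries 1 to 4 or G-NHA9–ΔDNA libraries 2 and 3, with adjusted p-values from 0.064 to 0.16, and without TMM scaling (0.056). The porphyrin enzyme genes *Cpox* and *Fech* rose from 37.8 ± 9.77 and 36.6 ± 3.91 to 70.7 ± 9.77 and 53.4 ± 4.08 CPM without overlap. *Ackr1*, the Duffy antigen, rose from 0.653 ± 0.33 to 3.4 ± 1.68 CPM. *Slc4a1*, the anion exchanger band 3, rose by 1.95 on the log2 scale, and by 2.58 without G-NHA9 library 5, the highest of its group. *Car1*, a carbonic anhydrase of red cell progenitors, was the member of the regulator list that fell, from 5.37 ± 2.61 to 0.849 ± 0.222 CPM (log2 fold change, -2.66, SE 0.43, adjusted p = 1.6e-05). The globin and heme count was 3 without G-NHA9 library 1 or G-NHA9–ΔDNA library 2 or 3 and 4 without G-NHA9 library 4, and the membrane count was 9 without G-NHA9 library 1 or 4. Summed levels of the membrane list were 295 to 591 CPM with G-NHA9, highest in library 5, and 606.5 to 708 CPM with G-NHA9–ΔDNA. The empty vector gave 368 to 543 CPM. Between the constructs, the globin and heme sums overlapped (443.5 to 810 and 717 to 1925 CPM), as did the regulator sums (351.5 to 648 and 523 to 859 CPM).

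Late neutrophil granule genes rose in 13 of 23 (median log2 fold change, 0.86), and 14 of the 23 did not overlap between the constructs (background, 10.7% higher and 14.2% without overlap). *Mmp9* was among these 14 but was lower with G-NHA9–ΔDNA (log2 fold change, -0.98, adjusted p = 0.051). The other members with a negative log2 fold change were *Mmp8*, *Ly6g*, *Padi4* and *Ngp*, none of which passed the test. Their values were -0.52, -0.76, -0.42 and -0.05 (adjusted p = 0.099, 0.09, 0.13 and 0.94). At an unadjusted p under 0.05, 16 of the 23 were higher and 4 lower. *Chil3*, a chitinase-like protein of neutrophils and macrophages, had 1819, 2578, 3448, 1232 and 888 CPM with G-NHA9 and 7690, 7156, 7996, 9732 and 11010 CPM with G-NHA9–ΔDNA (log2 fold change, 2.13, SE 0.31, adjusted p = 3.0e-06). *Fpr1*, a receptor for bacterial peptides, had 8.51, 6.83, 9.02, 4.8 and 4.27 CPM and 33.9, 35.7, 34.7, 28.1 and 21.6 CPM (log2 fold change, 2.21, SE 0.27, adjusted p = 1.7e-07), and every empty vector library was higher still (39.2 to 46.2 CPM). *Camp*, a secondary granule peptide, rose 3.06-fold from 79.5 ± 20.6 to 243 ± 55.9 CPM, and the cystatins *Stfa1* and *Stfa2* 2.7-fold and 2.36-fold. For *Stfa1* every G-NHA9–ΔDNA library was above the empty vector range (56.9 to 135 CPM), in which 4 of the 5 G-NHA9 libraries lay. The summed level was 14510 to 29830 CPM with G-NHA9, 40270 to 45760 CPM with G-NHA9–ΔDNA and 45770 to 59230 CPM with the empty vector. These sums include *Lyz2*, also in the macrophage list (means, 8640, 15660 and 29090 CPM in this order), and *Chil3* (1993, 8717 and 10420 CPM). They are therefore not specific to neutrophils. Primary granule genes of myeloid precursors did not move together, with 2 of 12 higher (*Gstm1* and *Fcnb*) and 2 lower (*Cst7* and *Ctsg*), and a median log2 fold change of -0.07. *Cst7*, a protease inhibitor, fell from 137 ± 22.6 to 79.3 ± 12.6 CPM (log2 fold change, -0.79, SE 0.17, adjusted p = 0.00099). The calls of *Ctsg* and *Fcnb* (-0.78 and 0.96, adjusted p = 0.046 and 0.028) were lost in 8 and 5 of the 10 fits that left out 1 library (adjusted p up to 0.15 and 0.076), and the count of the list was 2 without G-NHA9 library 1 or 4 or G-NHA9–ΔDNA library 1. Summed levels of the list were 2188 to 2703 CPM, 1639 to 2796 CPM and 1040 to 1794 CPM in the same order.

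**Figure D4:**
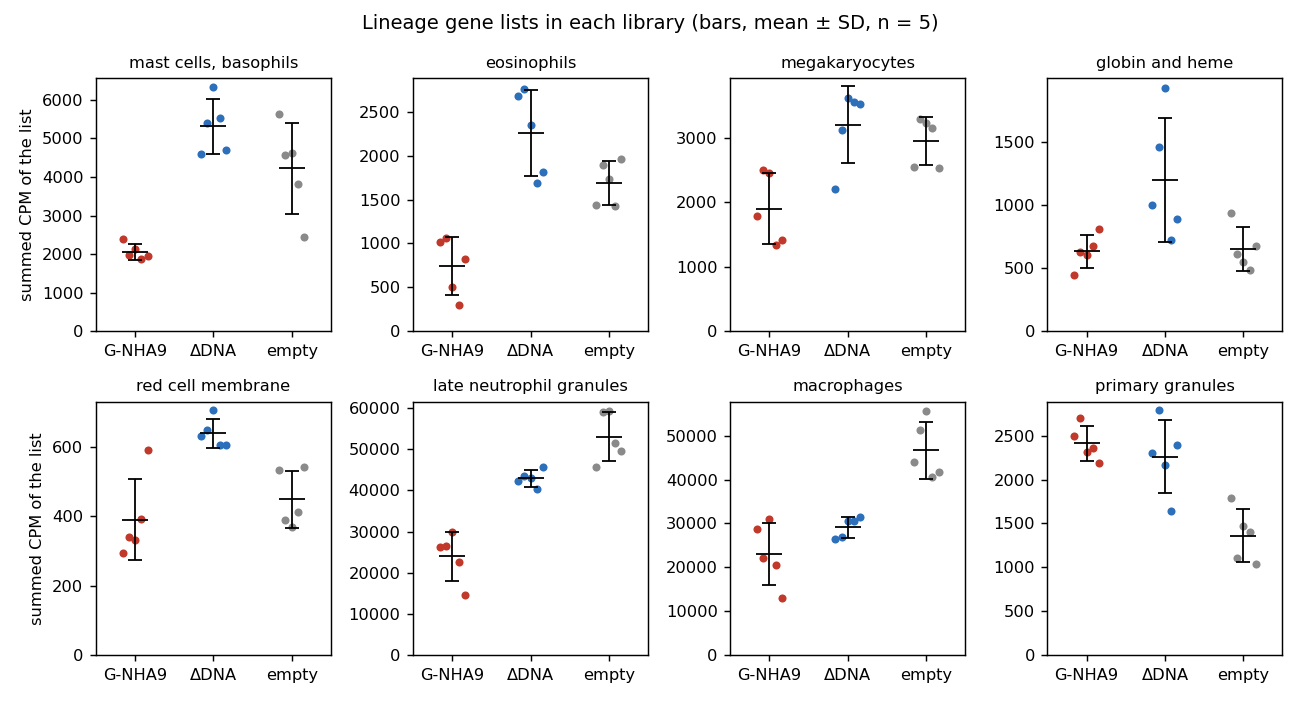
Summed CPM of 8 lineage gene lists in each G-NHA9 (red), G-NHA9–ΔDNA (blue) and empty vector library (grey), with mean ± SD of 5 libraries. The mast cell, eosinophil, red cell membrane and late neutrophil sums of the G-NHA9–ΔDNA libraries lie above all G-NHA9 libraries. The megakaryocyte, globin, macrophage and primary granule sums overlap, and the globin sum spreads most within G-NHA9–ΔDNA. The late neutrophil and macrophage lists share *Lyz2*.

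Macrophage and monocyte genes went both ways, with 6 of 28 higher and 7 lower (median log2 fold change, -0.13, background 10.7% higher and 11.4% lower). *Ccr2*, the monocyte chemokine receptor, had 942, 944, 852, 677 and 505 CPM with G-NHA9 and 252, 234, 211, 235 and 245 CPM with G-NHA9–ΔDNA and fell 3.33-fold without overlap (log2 fold change, -1.74, SE 0.23, adjusted p = 7.1e-07). The complement genes *C1qb* and *C1qc* fell from 5.33 ± 1.49 and 4.86 ± 1.7 to 1.19 ± 0.601 and 0.926 ± 0.411 CPM (-2.17 and -2.39). *Marco*, a scavenger receptor, had 3.0, 4.42, 4.29, 1.34 and 1.69 CPM and 22.8, 27.7, 27.4, 20.4 and 17.1 CPM and rose 7.83-fold (log2 fold change, 2.97, SE 0.32, adjusted p = 9.9e-09). *Mrc1*, the mannose receptor, rose 2.15-fold from 521 ± 195 to 1121 ± 59.0 CPM, and *Ctsk*, a lysosomal cathepsin, 2.48-fold from 57.8 ± 15.7 to 143 ± 47.3 CPM. The summed level of the list was 12970 to 30890 CPM, 26340 to 31570 CPM and 40490 to 55530 CPM with G-NHA9, G-NHA9–ΔDNA and the empty vector, and G-NHA9 library 5 was the lowest of its group in this list and in the late neutrophil list, which share *Lyz2*.

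Of 18 genes of MHC class II presentation and dendritic cells, 5 fell and 2 rose (median log2 fold change, -0.20, background 11.4% lower and 10.7% higher). *H2-Ob*, a subunit of H2-O, which restrains peptide loading, had 68.0, 75.5, 72.5, 75.9 and 41.2 CPM with G-NHA9 and 6.92, 6.51, 6.49, 8.89 and 13.3 CPM with G-NHA9–ΔDNA (log2 fold change, -2.98, SE 0.20, adjusted p = 7.4e-13). The groups did not overlap, and 4 of the 5 G-NHA9–ΔDNA libraries were below the empty vector range of 9.96 to 15.7 CPM. Its partner *H2-Oa* fell 1.84-fold from 16.6 ± 3.61 to 9.02 ± 1.21 CPM, with overlap. *Flt3*, *Ccr7* and *Cd83* were the other falls (-5.98, -1.27 and -0.86), and *Clec9a*, a receptor of cross-presenting dendritic cells, and *Ciita*, the class II transactivator, rose by 1.85 and 0.56. The remaining 11 did not pass the test. Among them were *H2-Aa*, *H2-Ab1*, *H2-Eb1* and *Cd74* (0.32, 0.03, 0.26 and -0.385, adjusted p = 0.15, 0.94, 0.31 and 0.079). The call of *Ciita* was lost in 6 of 10 fits that left out 1 library, with the highest adjusted p, 0.16, without G-NHA9–ΔDNA library 4. Of 13 CC chemokines 3 fell and 2 rose (background, 11.4% lower and 10.7% higher). *Ccl22*, *Ccl5* and *Ccl4* fell by 1.71, 1.28 and 1.01 on the log2 scale, and *Ccl6* rose from 3650 ± 1096 to 6009 ± 506 CPM (log2 fold change, 0.72, SE 0.17, adjusted p = 0.0021). *Ccl17* rose by 1.20 (adjusted p = 0.039), a call that was lost in fits that left out 1 library, with the highest adjusted p, 0.11, without G-NHA9–ΔDNA library 2.

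Of 24 myeloid transcription factors 3 rose and 4 fell (29.2% changed, against 22.1% of all genes), with a median log2 fold change of -0.07. *Gfi1*, a repressor needed for neutrophils, had 62.9, 79.0, 61.8, 69.3 and 50.2 CPM with G-NHA9 and 33.7, 43.7, 30.2, 23.6 and 40.4 CPM with G-NHA9–ΔDNA (log2 fold change, -0.91, SE 0.25, adjusted p = 0.0072). *Cebpa* fell from 130.3 ± 15.7 to 96.6 ± 12.4 CPM (-0.43) and *Irf8* from 75.6 to 58.9 CPM (-0.36). The call of *Irf8* was lost without G-NHA9 library 4 (adjusted p = 0.12) and in 3 other such fits. *Batf3*, a dendritic cell factor, rose from 2.38 ± 0.663 to 5.19 ± 0.556 CPM (1.13), and *Klf4* and *Maf* rose by 0.84 and 0.74 with calls that were lost in fits that left out 1 library (adjusted p up to 0.092 and 0.098). The count of the list was 4 without G-NHA9 library 4 or G-NHA9–ΔDNA library 1. Of 20 growth factor receptors, 4 rose, among them *Il5ra*, *Kit* and *Epor*, and *Flt3* and *Il3ra* fell (30.0% changed, against 22.1% of all genes). *Epor*, the erythropoietin receptor, changed by 0.82 and *Il3ra* by -0.42. The call of *Epor* was lost in the fit to the 10 libraries alone (adjusted p = 0.065), and that of *Il3ra* without G-NHA9 library 3 (0.054) or G-NHA9–ΔDNA library 3 (0.053).

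Cytokine and STAT5 response genes were lower in 9 of 19 and higher in 2 (median log2 fold change, -0.34, background 11.4% lower and 10.7% higher). Besides *Il2ra*, the feedback inhibitor *Socs2* had 65.4, 65.5, 62.3, 63.5 and 61.4 CPM with G-NHA9 and 31.7, 28.7, 27.4, 26.3 and 23.3 CPM with G-NHA9–ΔDNA, a 2.31-fold fall without overlap (log2 fold change, -1.21, SE 0.10, adjusted p = 2.6e-11). *Csn2*, a beta-casein gene and classic STAT5 target, had 5.11, 2.24, 2.41, 15.7 and 15.3 CPM and 0.351, 0.141, 0.348, 1.5 and 0.403 CPM (log2 fold change, -3.91, SE 0.87, adjusted p = 0.0011, and -4.68 without G-NHA9–ΔDNA library 4). Its level was highest in libraries 4 and 5 of G-NHA9. *Dusp6*, a phosphatase of the ERK pathway, and *Etv4*, an ETS factor, fell by 0.61 and 0.92 on the log2 scale, and inhibitors of the same pathway went both ways. *Spry2* fell by 0.56, and *Spry1* and *Spred1* rose by 0.54 and 0.28, the last not in 5 of 10 fits that left out 1 library (adjusted p up to 0.077). In the *Serpina3* protease inhibitor cluster, 5 of 11 genes were tested, of which 2 fell and 3 rose (background, 11.4% lower and 10.7% higher). *Serpina3g* had 246, 246, 259, 295 and 244 CPM and 76.3, 98.1, 129, 124 and 182 CPM (log2 fold change, -1.08, SE 0.22, adjusted p = 0.00049), and *Serpina3f* fell from 10.6 ± 4.94 to 2.67 ± 1.57 CPM (-1.98). *Serpina3b* rose from 4.66 ± 1.63 to 14.8 ± 7.21 CPM (1.66), while *Serpina3i* and *Serpina3h*, both near or below 2 CPM, rose by 1.78 and 1.84, the latter not without G-NHA9–ΔDNA library 5 (adjusted p = 0.062). These are near copies whose reads can be shared.

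Lymphocyte and stromal genes were checked as markers of other cells. Of 31 lymphocyte genes 13 were tested, and those below the filter, such as *Ms4a1*, *Cd3e*, *Cd8a* and *Rag1*, had at most 9 counts in any library of either construct. Of the 13, 4 fell and 3 rose (background, 11.4% lower and 10.7% higher). *Thy1* had the highest mean of these genes in each of the 3 conditions, and the summed level of the list was lower with G-NHA9–ΔDNA (192 to 381 CPM with G-NHA9, 71.0 to 121 CPM with G-NHA9–ΔDNA and 26.1 to 55.1 CPM with the empty vector), and *Lck*, a kinase of T cells, fell from 3.45 ± 0.208 to 1.17 ± 0.388 CPM (-1.56). *Ighm* and *Gata3* fell by 0.62 and 0.97. The call of *Ighm* was lost without G-NHA9 library 4 (adjusted p = 0.063). That of *Gata3* was lost without G-NHA9 library 5 (0.17) or any 1 of G-NHA9–ΔDNA libraries 1 to 4 (0.054 to 0.1). It was also lost without the filter (0.058) and in the fit to the 10 libraries alone (0.069). *Cd2*, *Cd79b* and *Eomes* rose, to means of 2.03, 1.01 and 1.25 CPM. Of 14 stromal and endothelial genes 8 were tested, and the others, such as *Cdh5*, *Col3a1* and *Cxcl12*, had at most 15 counts in a library. *Lepr* and the receptor *Pdgfrb* fell (-3.96 and -2.13), and *Pdgfra*, *Kdr*, *Vim* and *Pecam1* rose (2.44, 1.30, 0.68 and 0.47). The share changed was 75.0% of the 8 tested, against 22.1% of all genes. *Pecam1* had 152, 173, 171, 167 and 162 CPM with G-NHA9 and 229, 242, 244, 209.8 and 215 CPM with G-NHA9–ΔDNA. The summed stromal level was 1519 to 2191 CPM with G-NHA9, 2252 to 3186 CPM with G-NHA9–ΔDNA and 2192 to 3481 CPM with the empty vector, most of it *Vim*, which many cell types express. The part of such cells in the results above was not tested.

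Serine and one-carbon metabolism genes fell in 11 of 20 (background, 11.4%), with a median log2 fold change of -0.63, and the other 9 did not pass the test. *Bcat1*, a branched-chain aminotransferase, had 18.2, 20.3, 19.3, 15.2 and 16.3 CPM with G-NHA9 and 5.6, 6.32, 5.06, 2.62 and 4.86 CPM with G-NHA9–ΔDNA (log2 fold change, -1.87, SE 0.26, adjusted p = 1.6e-06). *Shmt2*, the mitochondrial serine hydroxymethyltransferase, had 95.4, 102, 106, 80.3 and 88.1 CPM and 48.9, 54.0, 39.8, 44.8 and 55.6 CPM (log2 fold change, -0.96, SE 0.18, adjusted p = 0.00011). Neither gene's groups overlapped. *Psph*, the last enzyme of serine synthesis, fell 1.88-fold from 29.5 ± 7.19 to 15.7 ± 1.97 CPM, and the amino acid carrier *Slc1a4* 2.36-fold from 11.5 ± 4.04 to 4.87 ± 0.672 CPM. *Asns*, asparagine synthetase, had 203, 231, 256, 80.1 and 52.1 CPM and 63.2, 88.9, 49.6, 35.5 and 92.6 CPM, so G-NHA9 libraries 4 and 5 overlapped the G-NHA9–ΔDNA libraries (log2 fold change, -1.32, SE 0.36, adjusted p = 0.0069). *Chac1*, which like *Asns* responds to amino acid stress, showed the same overlap in libraries 4 and 5 (log2 fold change, -1.48, SE 0.35, adjusted p = 0.002).

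Of 39 translation initiation and elongation factors 11 fell (median log2 fold change, -0.12), against 11.4% of all genes lower. Of 40 nucleolar ribosome assembly genes 4 fell (10.0%, median -0.14), a share near that background. *Eef1a1*, an elongation factor, had 9017, 9269, 10080, 7966 and 6216 CPM with G-NHA9 and 5731, 6554, 5801, 5293 and 6052 CPM with G-NHA9–ΔDNA (log2 fold change, -0.53, SE 0.11, adjusted p = 0.00077), with overlap from G-NHA9 library 5. *Eef2* fell 1.34-fold from 2524 ± 228 to 1878 ± 117 CPM and *Eif4b* 1.33-fold from 555 ± 45.3 to 418 ± 37.6 CPM, both without overlap. The count of translation factors was 7 without G-NHA9–ΔDNA library 4 and 7 in the fit to the 10 libraries alone. The 4 nucleolar genes were *Rrp1b*, *Nop10*, *Polr1c* and *Utp14a*, with log2 fold changes of -0.49, -0.43, -0.37 and -0.30, the last lost in fits that left out 1 library (adjusted p up to 0.083). The ribosomal protein genes *Rpl12* and *Rps12*, from the study's marked genes, fell by 0.53 and 0.47.

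Of 25 genes of glycolysis and lactate transport 5 rose and 1 fell (median log2 fold change, 0.14), a share changed of 24.0% against 22.1% of all genes. *Ldhb*, a lactate dehydrogenase subunit, rose 6.03-fold from 0.417 ± 0.101 to 2.51 ± 0.345 CPM (log2 fold change, 2.58, SE 0.24, adjusted p = 7.0e-10). *Slc2a3*, the glucose transporter GLUT3, had 129, 196, 156, 136 and 171 CPM with G-NHA9 and 211, 275, 305, 311 and 313 CPM with G-NHA9–ΔDNA, without overlap (log2 fold change, 0.85, SE 0.15, adjusted p = 5.8e-05). *Pfkfb4*, *Slc16a3* and *Ldha* rose by 0.54, 0.46 and 0.42, and *Eno3* fell by 0.39. The call of *Ldha* was lost in the fit to the 10 libraries alone (adjusted p = 0.055), that of *Slc16a3* was lost in 7 fits that left out 1 library (adjusted p up to 0.1) and that of *Eno3* was lost without G-NHA9 library 4 (0.057), and the count was 11 without G-NHA9 library 5. Of 27 sterol and fatty acid synthesis genes, of which fewer changed (11.1%) than of all genes, *Ebp* and *Acaca* rose (0.40 and 0.36) and *Sc5d* fell (-0.44), the call of *Acaca* was lost without TMM scaling (adjusted p = 0.064), and the number changed was 7 with the replicate block, 7 without G-NHA9 library 5 and 5 without G-NHA9–ΔDNA library 5. Of 42 lysosomal genes 8 rose and 2 fell (median, 0.05), a share changed of 23.8% that was near the 22.1% of all genes. *Ctsk*, *Acp5* and *Ids* rose by 1.31, 1.23 and 0.95, and *Sgsh*, a heparan sulfate sulfatase, and *Ppt1* fell by 1.04 and 0.36. The call of *Ppt1* was lost without any 1 of libraries 1 to 4 of either construct (adjusted p = 0.053 to 0.1). It was also lost without the filter (0.077) and in the fit to the 10 libraries alone (0.12). The lysosomal count was 6 without G-NHA9 library 2 or G-NHA9–ΔDNA library 3 and 7 without library 4 of either construct.

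Few genes of mitosis and DNA replication passed the test, which 22.1% of all genes passed. None of 38 mitotic spindle and kinetochore genes passed edgeR's test (median log2 fold change, 0.10), against 1 at an unadjusted p under 0.05, none in DESeq2, and 1 without G-NHA9 library 5. *Mki67*, a marker of cycling cells, had 570.4 ± 155 and 764 ± 126 CPM (adjusted p = 0.19), and *Top2a*, a topoisomerase of dividing cells, 476 ± 72.3 and 511 ± 108 CPM (adjusted p = 0.79). Summed levels of the list were 2510 to 3837 CPM, 2954 to 4126 CPM and 1452 to 2965 CPM with G-NHA9, G-NHA9–ΔDNA and the empty vector. Of 41 DNA replication genes 1 fell (median, 0.10). This was *Dna2*, a nuclease and helicase, with 60.3, 69.6, 59.9, 68.4 and 79.4 CPM and 54.6, 57.9, 49.4, 52.1 and 45.8 CPM (log2 fold change, -0.38, SE 0.11, adjusted p = 0.0095), and its call was lost without G-NHA9 library 5 (-0.30, adjusted p = 0.053). The count was 2 with the replicate block, 2 without any 1 of G-NHA9 libraries 4 and 5 or G-NHA9–ΔDNA libraries 2 and 4, and 5 without G-NHA9–ΔDNA library 5. *Pcna*, the replication clamp, had 193 ± 19.6 and 218 ± 35.7 CPM (adjusted p = 0.3). Of 22 G1 cyclins, kinases and inhibitors 5 rose (22.7%), against 10.7% of all genes higher and 22.1% changed. *Ccnd1*, cyclin D1, had 34.5, 38.3, 48.2, 23.4 and 28.1 CPM and 79.6, 78.8, 69.8, 70.3 and 68.9 CPM without overlap (log2 fold change, 1.09, SE 0.23, adjusted p = 0.00066), and *Cdkn2a*, which encodes p16 and p19ARF, rose from 3.81 ± 0.483 to 6.55 ± 0.605 CPM (0.78). *E2f2*, *Ccnd3* and *Rb1* rose by 0.45, 0.36 and 0.34, calls that were lost in fits that left out 1 library (highest adjusted p, 0.07, 0.065 and 0.099), and the count was 3 without G-NHA9 library 1 or 3 and 2 without TMM scaling.

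Of 30 interferon-stimulated genes 4 fell and 1 rose (median log2 fold change, -0.39), 16.7% against 22.1% of all genes, and 9 changed in the fit to the 10 libraries alone. The guanylate-binding protein genes split, with *Gbp2* and *Gbp3* lower (22.1 ± 3.85 to 12.9 ± 1.95 CPM and 10.6 ± 1.95 to 5.76 ± 0.886 CPM) and *Gbp4* higher (3.71 ± 1.3 to 9.82 ± 4.63 CPM, with overlap). *Bst2* and *Ifih1* fell by 0.71 and 0.56, the latter not without G-NHA9 library 1 (adjusted p = 0.052). Of 23 p53 target genes 3 fell and 2 rose (median, 0.00), a share changed of 21.7% that was near the 22.1% of all genes. *Sesn1*, a stress-induced inhibitor of growth signalling, had 44.2, 46.4, 43.7, 42.8 and 40.4 CPM with G-NHA9 and 25.3, 26.2, 29.0, 27.2 and 31.5 CPM with G-NHA9–ΔDNA (log2 fold change, -0.64, SE 0.09, adjusted p = 6.5e-07), and *Eda2r*, a death receptor, rose 2.48-fold from 1.47 ± 0.429 to 3.64 ± 1.02 CPM. *Phlda3* rose by 0.77, and *Pmaip1* and *Sesn2* fell by 0.59 and 0.40 with calls that were lost in fits that left out 1 library (adjusted p up to 0.15 and 0.12). The p53 count was 8 with the replicate block and 3 without G-NHA9–ΔDNA library 3. Of 17 immediate early and heat shock genes, which respond to handling of cells and of which 11.8% changed, *Hspa1a* and *Hspa1b* rose by 1.13 and 1.18. These are near copies, both calls were lost without G-NHA9–ΔDNA library 5 (adjusted p = 0.1 for each), the count was 1 without G-NHA9 library 2 or G-NHA9–ΔDNA library 1, and it was 5 with the replicate block.

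**Figure D5:**
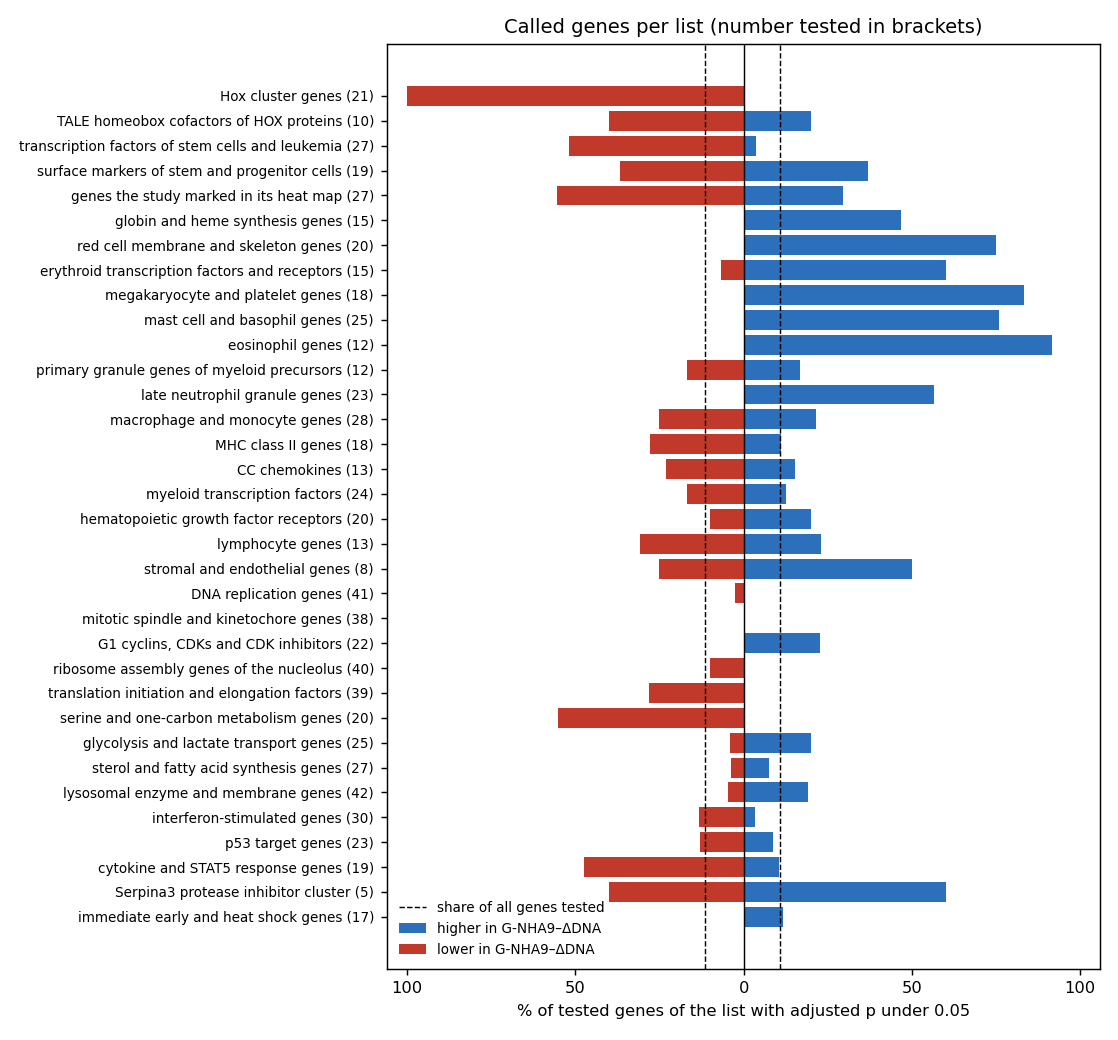
Share of the tested genes of each list that were higher (blue, to the right) or lower (red, to the left) in G-NHA9–ΔDNA cells, in percent, with the number tested in brackets. Dashed lines mark the shares over all genes tested (10.7% higher and 11.4% lower). Blue bars extend past that line for mast cell, eosinophil, megakaryocyte, red cell and late neutrophil genes, red bars for *Hox*, stem cell and one-carbon genes, among others, and mitotic genes have neither.

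Among the genes with the most reads that did not pass the test, *Ftl1*, the ferritin light chain, had 8883 ± 2411 and 11430 ± 1137 CPM (log2 fold change, 0.36, adjusted p = 0.17), and *Rn7sk*, a small nuclear RNA that regulates transcription elongation, 13540 ± 2710 and 12310 ± 1013 CPM (-0.14, adjusted p = 0.51). With the score of sex-linked transcripts in the fit, the adjusted p of *Ftl1* was 0.031.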

How the data were processed

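Total RNA of sorted, cultured lin- HSPCs was sequenced in paired ends on an Illumina NovaSeq from TruSeq Stranded Total RNA libraries. Per the submitters' processing notes, reads were aligned with STAR (2.7.0d) to mm10 and counted with HTSeq (0.11.2). The deposited values are raw counts per gene for 49671 genes, of which 11520 had no count in any library. Whether strand was used in counting is not given in the sources used here.

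All 35 libraries of the 7 conditions were fitted together in edgeR (4.0.16, R 4.3.3), with filterByExpr by condition, TMM scaling and the quasi-likelihood test. Filtering left 17166 genes with 99.96% of counts. P-values were adjusted by Benjamini-Hochberg over these genes, and adjusted p under 0.05 was called. SE was the absolute log2 fold change over the square root of F. CPM used TMM-scaled library sizes. Ratios of genes near 0 used summed counts with exact 95% binomial intervals, which cover counting error only. Simulated counts held 100 genes changed 2-fold and 100 changed 4-fold, all at 1 CPM or more, among 16877 tested. Of these, edgeR recovered 83% and 97%, with 10 unchanged genes called, and DESeq2 (1.42.0) 88% and 99%, with 22. Far fewer genes changed there than the 22.1% called in the data. The simulation therefore did not check scaling or false calls in that setting. Replicates were compared, and no pair agreed within sampling noise. Gene positions came from GENCODE M21 (GRCm38, 99.3% of identifiers found) and promoters from RefSeq (GRCm38.p6).

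Same-numbered libraries deviated together from their group means (correlation over genes, 0.136 to 0.505 in 5 of 5 pairs, against a mean of -0.075 for other numbers). Some pairs of other numbers were higher than some of these. G-NHA9 library 3 had 0.326 with G-NHA9–ΔDNA library 2 and 0.148 with library 3. G-NHA9 library 5 had 0.338 with library 4 and 0.136 with library 5. On this evidence alone, the replicate number was used as a block in an alternative fit. The reported test had no such term.

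The comparison and gene lists were chosen with earlier results of these data known. Genes named were *Hoxa9*, *Nup98*, members of the *Hox*, TALE and study-marked lists, the 12 largest changes in each direction among called genes with at least 5 CPM and no overlap, up to 6 called members per list with at least 1 CPM by size of change, or its 2 highest members, and the 5 uncalled genes with the highest CPM; of these, the text gives a part, and some are not reported here. *Tal1*, *Ccr3*, *Ciita*, *Irf8*, *Cd79b*, *Eomes*, *Pdgfra*, *Spry1*, *Spry2*, *Spred1*, *Serpina3h*, *Lyz2*, *Mmp9*, *Mmp8*, *Ly6g*, *Padi4*, *Ngp*, *H2-Aa*, *H2-Ab1*, *H2-Eb1* and *Cd74* lie outside this rule and were chosen after their values were seen. Alternatives were no TMM, RLE size factors, no filter, a mean of at least 1 CPM, the replicate block, a fit to the 10 libraries, a score of sex-linked transcripts as covariate (the mice were of both sexes), DESeq2, and leaving out each library.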

Additional observations from a re-analysis of the deposited data

Results flagged for a closer look

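In 27 measures a single library lay far from the other 4 of its construct, by the gap to its nearest neighbour as a share of the group's range; chance gives about 1 in 20 groups, and 5.7% of the 470 groups examined were found. Causes were not tested.

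In the G-NHA9 group, library 2 had the most counts (45500000, rounded). Library 1 was high for *Eya1* (45.0 CPM), *Pmaip1* (98.4 CPM) and the summed immediate early and heat shock genes (2630 CPM). Library 3 was high for *Arnt2* (2.58 CPM), *Ccr7* (7.16 CPM) and *Spry1* (5.83 CPM), library 2 was low for *Tpsb2* (29.1 CPM), and library 4 was high for the *Serpina3* sum (318 CPM). Library 5 was high for *Gata3* (2.91 CPM), *Hoxb8* (6.42 CPM), *Slc4a1* (36.8 CPM) and low for *H2-Ob* (41.2 CPM) and *Ppt1* (161 CPM).

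In the G-NHA9–ΔDNA group, library 5 was high for *Crisp3* (1.23 CPM), *Pbx4* (1.05 CPM) and the lymphocyte sum (121 CPM) and low for *Stfa1* (197 CPM). Library 4 was high for *Kit* (200 CPM), *Cobl* (43.4 CPM), *Ciita* (18.4 CPM), *Csn2* (1.5 CPM) and *Hoxc6* (0.19 CPM). Library 1 held the counts of *Hoxc4* (0.062 CPM) and *Hoxb8* (0.0413 CPM) and was low for *Serpina3i* (0.661 CPM), and library 3 stood apart for the sterol and fatty acid synthesis sum (5500 CPM).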

How the results depend on the processing

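The number of genes changed was 3798 as reported, 3994 without TMM, 3799 with RLE size factors, 3313 without the filter, 3006 at a mean of at least 1 CPM, 4827 with the replicate block (which kept 99.9% of the reported calls), 3063 in the fit to the 10 libraries, 4493 with the score of sex-linked transcripts and 4107 in DESeq2. Leaving out 1 library gave 3196 to 3986 genes, 1630 to 1944 higher and 1548 to 2042 lower, and no gene called both as reported and in such a fit changed sign. Lower *Hox* genes numbered 21 in each fit except 17 at a mean of at least 1 CPM and 20 in the fit to the 10 libraries.

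Counts of called genes in some lists moved by over 1.5 times, and the cause was not tested. DNA replication genes numbered 2 without TMM, at 1 CPM, with the block, with the score and in DESeq2 (1 reported). Without TMM, G1 genes numbered 2 (5 reported). Sterol genes numbered 7 with the block, 6 with the score and 5 in DESeq2 (3 reported), p53 targets 8 and heat shock genes 5 with the block (5 and 2 reported). Lysosomal genes numbered 7 without the filter and 7 in the fit to 10 libraries (10 reported), where translation factors numbered 7 (11 reported) and interferon genes 9 (5 reported). Beside these lists and *Nup98*, the block changed no call of a gene or list named in the text. *Lyz2*, *Mmp9*, *Mmp8*, *Ly6g*, *Padi4*, *Ngp*, *H2-Aa*, *H2-Ab1*, *H2-Eb1* and *Cd74* were left out of this comparison.

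Over the fits that left out 1 library, the lowest and highest counts were 3 and 10 for globin and heme, 9 and 18 for red cell membrane, 2 and 3 for primary granule, 4 and 9 for myeloid factor, 1 and 5 for DNA replication, 0 and 1 for mitosis, 3 and 7 for G1, 7 and 15 for translation, 5 and 11 for glycolysis, 3 and 7 for sterol, 6 and 10 for lysosomal, 3 and 5 for p53 and 0 and 2 for heat shock genes. The sign of *Pbx2* turned without TMM (-0.02), without G-NHA9 library 5 (-0.01) and without G-NHA9–ΔDNA library 5 (-0.04; range over libraries left out, -0.04 to 0.08), and that of *Pknox1* without TMM (-0.02) and without G-NHA9 library 4 (-0.02; range, -0.02 to 0.07). At these depths 3 counts are up to 0.087 CPM, so a level below that in a single library could not be told from 0, and for genes with means below it the ratio of summed counts is given.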
